A study of Rattus norvegicus with 15 samples.

Results

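Transcripts of dorsal CA1, the output field of the hippocampus needed for memory of places, were compared between all animals trained in contextual fear conditioning and naive animals. All 15 libraries of the series enter the comparison, 10 trained and 5 naive. They come from male, wild-type Sprague-Dawley rats of 8 to 9 weeks that received Accell siRNA, a form that cells take up without a carrier, into dorsal CA1 by stereotaxic injection. The naive group (replicates 1, 2, 9, 11 and 12) carried scrambled siRNA and was not trained. The first trained group (scrambled trained, replicates 5, 6, 10, 15 and 16) carried scrambled siRNA, and the second (Rnf20-labelled trained, replicates 4, 8, 14, 18 and 20) carried siRNA against Rnf20. Training followed 5 days after the injection, and the time from training to dissection is not in the labels. Every group therefore carried an injected siRNA, and neither untrained animals with Rnf20 siRNA nor animals given the place or the shock alone were analysed here. In the Rnf20-labelled group, training and the label cannot be told apart when it is set against the naive group, so genes were asked for a difference from naive in both trained groups. Whether every library is a separate animal is not in the labels, and the p-values then reflect only how far these samples spread.

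Contextual fear conditioning teaches an animal to associate a place with a shock. Neurons that take part switch on immediate early genes such as Fos, Arc, Egr and Jun family members within minutes, partly through the transcription factors CREB and SRF, and most of these transcripts decay again within hours. A shock also raises circulating corticosterone, and the glucocorticoid receptor then drives genes such as Per1, Ddit4, Sgk1 and Fkbp5 in neurons and glia.

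Total counts ran from 14249375 to 17046535 in naive, from 15342480 to 20644425 in scrambled trained and from 12537250 to 18458527 in Rnf20-labelled libraries. Rnf20, the target of the siRNA, was at 41.8 ± 2.28 CPM (reads scaled to a common library size) in naive libraries (SD, n = 5), 43.2 ± 5.39 CPM in scrambled trained (n = 5) and 42.0 ± 2.32 CPM in Rnf20-labelled libraries (n = 5), so the label is used as a name only. Of 14 markers of CA1 pyramidal neurons 11 were measured, among them Wfs1 (381 ± 152 CPM in naive and 432 ± 240 CPM in trained libraries) and Pou3f1 (39.7 ± 11.9 and 40.3 ± 17.9 CPM), and their median log2 fold change was 0.01. Their summed level ran from 1103 to 1622 CPM in naive, 699 to 2259 CPM in scrambled trained and 959 to 1609 CPM in Rnf20-labelled libraries. That of 12 striatal neuron markers ran from 353 to 706, 257 to 1232 and 341 to 619 CPM in these groups. Scrambled trained replicates 10 and 15 and Rnf20-labelled replicate 18 lay at 53.5, 41.0 and 45.0 on the first principal component, Rnf20-labelled replicate 14 lay at -49.3 at the other end. The median of the CA1 markers was 0.24 without these 4 libraries. Tissue samples mix all cell types, so fewer cells of a type and less RNA per cell cannot be told apart.

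No gene separated all trained from naive libraries at an adjusted p under 0.05 in edgeR's quasi-likelihood test. Of 14880 genes tested, 0 were called higher and 0 lower (0% in each direction), and the smallest adjusted p was 0.551. At an unadjusted p under 0.05 there were 807 genes (5.42%), 478 higher (3.21%) and 329 lower (2.21%), and 10 genes (0.0672%) had an unadjusted p under 0.001. Limma-voom, with and without quality weights, also called 0 genes. DESeq2's Wald test called 9 genes of 14877 (0.0605%), 7 higher (0.0471%) and 2 lower (0.0134%). The 7 higher genes were Per1, Junb, Tubb2b, Egr2, Ddit4, Sfpq and Dtx2, and the 2 lower genes were Slc22a8 and Tubb4a. All 9 also had an unadjusted DESeq2 p under 0.05 with the same sign in each trained group against naive, which was the rule for a shared change. In edgeR no gene met that rule. Against naive, scrambled trained libraries had 1484 genes at an unadjusted edgeR p under 0.05 (9.97%; 6.62% higher and 3.35% lower), and Rnf20-labelled libraries 342 (2.3%; 1.21% higher and 1.09% lower). With the adjustment left aside, 85 genes were higher (0.571%) and 61 lower (0.41%) at an unadjusted edgeR p under 0.05 in the pooled contrast and in each trained group. These counts were 33 to 165 higher (lowest without Rnf20-labelled replicate 18, highest without Rnf20-labelled replicate 14) and 37 to 81 lower with 1 library left out, and 45 higher and 87 lower without the 4 libraries far out on the first component. They were 262 higher and 129 lower with the choroid plexus level as a covariate and 99 higher and 203 lower with 1 surrogate variable. Both trained groups are set against the same 5 naive libraries, so these counts describe the libraries and are no independent repeat of each other.

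The promoters of 4 of the 9 genes that DESeq2 called, none of them called by edgeR, are shown. They are the 250 bases before the start in RefSeq's GRCr8 annotation, matched by gene symbol, since the counts were made on Rnor_6.0. The 4 were picked by known function: Junb and Egr2 are immediate early genes, and Ddit4 and Per1 are glucocorticoid-responsive genes. Tubb2b and Slc22a8, not shown, had a smaller DESeq2 adjusted p than Egr2 and Ddit4. Capitals mark TGACG, the core of the cAMP response element bound by CREB, on either strand (so also CGTCA), and the serum response element bound by SRF. The promoters lie at chr19:40080876-40081125 on the + strand (Junb), chr20:21054442-21054691 on the - strand (Egr2), chr20:28437038-28437287 on the - strand (Ddit4) and chr10:54304126-54304375 on the + strand (Per1).
Junb: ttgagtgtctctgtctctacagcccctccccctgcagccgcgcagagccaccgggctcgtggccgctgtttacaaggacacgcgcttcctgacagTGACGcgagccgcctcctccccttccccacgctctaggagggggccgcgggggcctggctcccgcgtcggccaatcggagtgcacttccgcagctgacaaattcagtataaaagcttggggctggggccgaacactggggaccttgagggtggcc
Egr2: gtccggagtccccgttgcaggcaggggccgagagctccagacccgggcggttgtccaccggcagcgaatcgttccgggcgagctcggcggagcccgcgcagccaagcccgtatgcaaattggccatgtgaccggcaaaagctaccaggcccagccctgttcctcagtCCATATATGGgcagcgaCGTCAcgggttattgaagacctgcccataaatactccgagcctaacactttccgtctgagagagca
Ddit4: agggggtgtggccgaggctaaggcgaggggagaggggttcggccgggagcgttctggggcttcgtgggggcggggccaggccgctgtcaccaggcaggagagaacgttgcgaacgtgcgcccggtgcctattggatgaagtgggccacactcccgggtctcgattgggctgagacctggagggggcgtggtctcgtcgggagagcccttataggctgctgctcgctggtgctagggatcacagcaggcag
Per1: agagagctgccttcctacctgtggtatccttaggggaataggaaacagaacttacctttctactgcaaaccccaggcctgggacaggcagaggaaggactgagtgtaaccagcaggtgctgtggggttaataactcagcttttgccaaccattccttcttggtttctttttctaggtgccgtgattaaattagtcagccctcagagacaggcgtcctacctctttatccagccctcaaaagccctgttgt
The Junb promoter held TGACG 155 bases before its start. The Egr2 promoter held TGACG 66 bases and a serum response element 83 bases before its start. Neither motif was in these windows of Ddit4 and Per1, which says only that these letters are not there. Only the first promoter entry listed for each gene symbol was searched. The element bound by the glucocorticoid receptor was not searched for. Across 27457 rat promoters of the same length, TGACG was in 19.0%, the full element TGACGTCA, which contains TGACG, in 1.7%, and the serum response element in 1.5%.

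The immediate early genes Junb and Egr2 were higher in trained libraries of both groups. Junb, a subunit of the AP-1 transcription factor, was at 27.4, 31.8, 32.0, 23.2 and 19.0 CPM in the 5 naive libraries. It was at 48.4, 42.6, 35.0, 49.6 and 43.8 CPM in scrambled trained and at 38.2, 38.7, 34.9, 35.7 and 41.6 CPM in Rnf20-labelled libraries. Every trained library thus lay above every naive library. The log2 fold change was 0.61 (SE 0.12; edgeR unadjusted p = 9.28e-05, adjusted p = 0.551; DESeq2 adjusted p = 0.0029), with 0.72 in the scrambled and 0.50 in the Rnf20-labelled group, with an edgeR unadjusted p of 0.122 between them. Egr2, a zinc finger transcription factor induced by synaptic activity, was at 1.65, 2.81, 3.46, 0.628 and 0.855 CPM in naive libraries. It was at 7.66, 7.12, 4.34, 6.49 and 6.50 CPM in scrambled trained and at 10.0, 3.13, 4.67, 3.38 and 6.37 CPM in Rnf20-labelled libraries. Naive replicate 9, at 3.46 CPM, overlapped Rnf20-labelled replicates 8 and 18, and the other 8 trained libraries lay above all naive ones. The log2 fold change of Egr2 was 1.65 (SE 0.38; edgeR unadjusted p = 0.000552, adjusted p = 0.890; DESeq2 adjusted p = 0.0141), with 1.76 and 1.54 in the scrambled and Rnf20-labelled groups (unadjusted p between them 0.593).

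Per1 and Ddit4 had the smallest p among glucocorticoid-responsive genes and were higher in both trained groups. Per1, a circadian clock repressor that glucocorticoids and cAMP also induce, was at 30.2, 36.5, 48.8, 28.7 and 28.4 CPM in naive libraries. It was at 56.7, 53.6, 47.1, 60.5 and 58.4 CPM in scrambled trained and at 68.1, 54.9, 60.8, 46.8 and 63.3 CPM in Rnf20-labelled libraries. Only naive replicate 9 reached the trained range, where it exceeded scrambled trained replicate 10 and Rnf20-labelled replicate 18. The log2 fold change of Per1 was 0.72 (SE 0.13; edgeR unadjusted p = 4.08e-05, adjusted p = 0.551; DESeq2 adjusted p = 0.000513), with 0.68 and 0.77 in the 2 trained groups (unadjusted p between them 0.542). Without naive replicate 9 it was 0.88, and Per1 was then the 1 gene that edgeR called (adjusted p = 0.0102). Without naive replicate 11 it was 0.66, the lowest with 1 library left out (edgeR adjusted p = 0.907). Ddit4, an inhibitor of the growth kinase mTORC1, was at 55.6, 58.9, 64.7, 62.1 and 61.6 CPM in naive libraries. It was at 91.1, 80.4, 67.4, 82.5 and 89.4 CPM in scrambled trained and at 67.1, 99.6, 71.5, 82.2 and 76.97 CPM in Rnf20-labelled libraries. Its groups did not overlap, and the log2 fold change was 0.42 (SE 0.09; edgeR unadjusted p = 0.000354, adjusted p = 0.890; DESeq2 adjusted p = 0.0436), with 0.44 and 0.39 in the 2 trained groups.

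The other genes that DESeq2 called encode 2 tubulins, an RNA-binding protein, a ubiquitin ligase and a transporter. Tubb2b, a beta-tubulin of growing neurites, was at 151, 137, 135, 147 and 153 CPM in naive libraries. It was at 187, 219, 210, 212 and 194 CPM in scrambled trained and at 142, 195, 176, 179 and 162 CPM in Rnf20-labelled libraries. All trained libraries but Rnf20-labelled replicate 4 lay above the naive range. The log2 fold change was 0.37 (SE 0.07; edgeR unadjusted p = 0.000148; DESeq2 adjusted p = 0.00383), larger in the scrambled group (0.50) than in the Rnf20-labelled group (0.24) at an unadjusted p of 0.00811 that did not survive adjustment. Tubb4a, a beta-tubulin of mature neurons and oligodendrocytes, was at 1380, 1402, 1389, 1168 and 1150 CPM in naive libraries. In trained libraries it ran from 837 through a median of 996 to 1235 CPM. The groups overlapped only through Rnf20-labelled replicate 4, and the log2 fold change was -0.37 (SE 0.09; DESeq2 adjusted p = 0.0496), with -0.39 and -0.35 in the 2 trained groups. Beta-tubulin genes share long stretches of sequence, and how reads that match several of them were counted is not given in the sources used here.

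Sfpq, a nuclear RNA-binding protein of paraspeckles, was at 99.6, 94.8, 94.97, 91.4 and 92.1 CPM in naive libraries. In scrambled trained libraries it was at 112, 114, 116, 105 and 98.1 CPM and in Rnf20-labelled libraries at 108, 106, 106, 112 and 107 CPM. Scrambled trained replicate 16 was the only trained library inside the naive range, and the log2 fold change was 0.20 (SE 0.05; DESeq2 adjusted p = 0.0436), with 0.21 and 0.19 in the 2 trained groups. Dtx2, a Deltex-type ubiquitin ligase linked to Notch signalling, was at 8.47, 8.73, 7.03, 8.41 and 8.98 CPM in naive libraries. In trained libraries it ran from 9.06 through a median of 11.2 to 12.2 CPM, above all naive libraries. Its log2 fold change was 0.40 (SE 0.09; DESeq2 adjusted p = 0.0496), with 0.47 and 0.33 in the 2 trained groups.

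Slc22a8, the organic anion transporter OAT3 of brain capillaries and choroid plexus, was the gene of smallest p among the lower ones. It was at 13.9, 12.8, 16.8, 13.2 and 15.0 CPM in naive libraries, at 7.85, 10.5, 11.1, 7.54 and 8.69 CPM in scrambled trained and at 11.2, 11.2, 8.25, 9.34 and 7.36 CPM in Rnf20-labelled libraries. The highest trained library was below the lowest naive library. The log2 fold change was -0.62 (SE 0.12; edgeR unadjusted p = 0.000117; DESeq2 adjusted p = 0.00646), with -0.65 and -0.60 in the 2 trained groups. Choroid plexus and endothelial markers are given beside it. All 14 choroid plexus markers had a fold change below 0 (median -1.01), but 1 (Enpp2) had an unadjusted p under 0.05, against 2.21% lower over all genes. Enpp2 is also on the oligodendrocyte list. Without the 4 libraries far out on the first component the median of the choroid plexus markers was -1.92, with 10 at an unadjusted p under 0.05. Over all genes 909 passed that threshold in this fit, in either direction. Of 10 endothelial markers 9 were below 0, and 2 of them (Kdr and Cdh5) had an unadjusted p under 0.05. The summed level of the choroid plexus markers ran from 1954 to 5708 CPM in naive, from 147 to 5423 CPM in scrambled trained and from 279 to 2397 CPM in Rnf20-labelled libraries. With the choroid plexus level as a covariate the fold change of Slc22a8 was -0.48, and it was -0.54 when the 3 libraries lowest in these markers were left out. The endothelial markers summed to 269 to 319 CPM in naive, 253 to 302 CPM in scrambled trained and 235 to 330 CPM in Rnf20-labelled libraries, so the groups overlapped, and their part in the result was not tested.

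**Figure D1:**
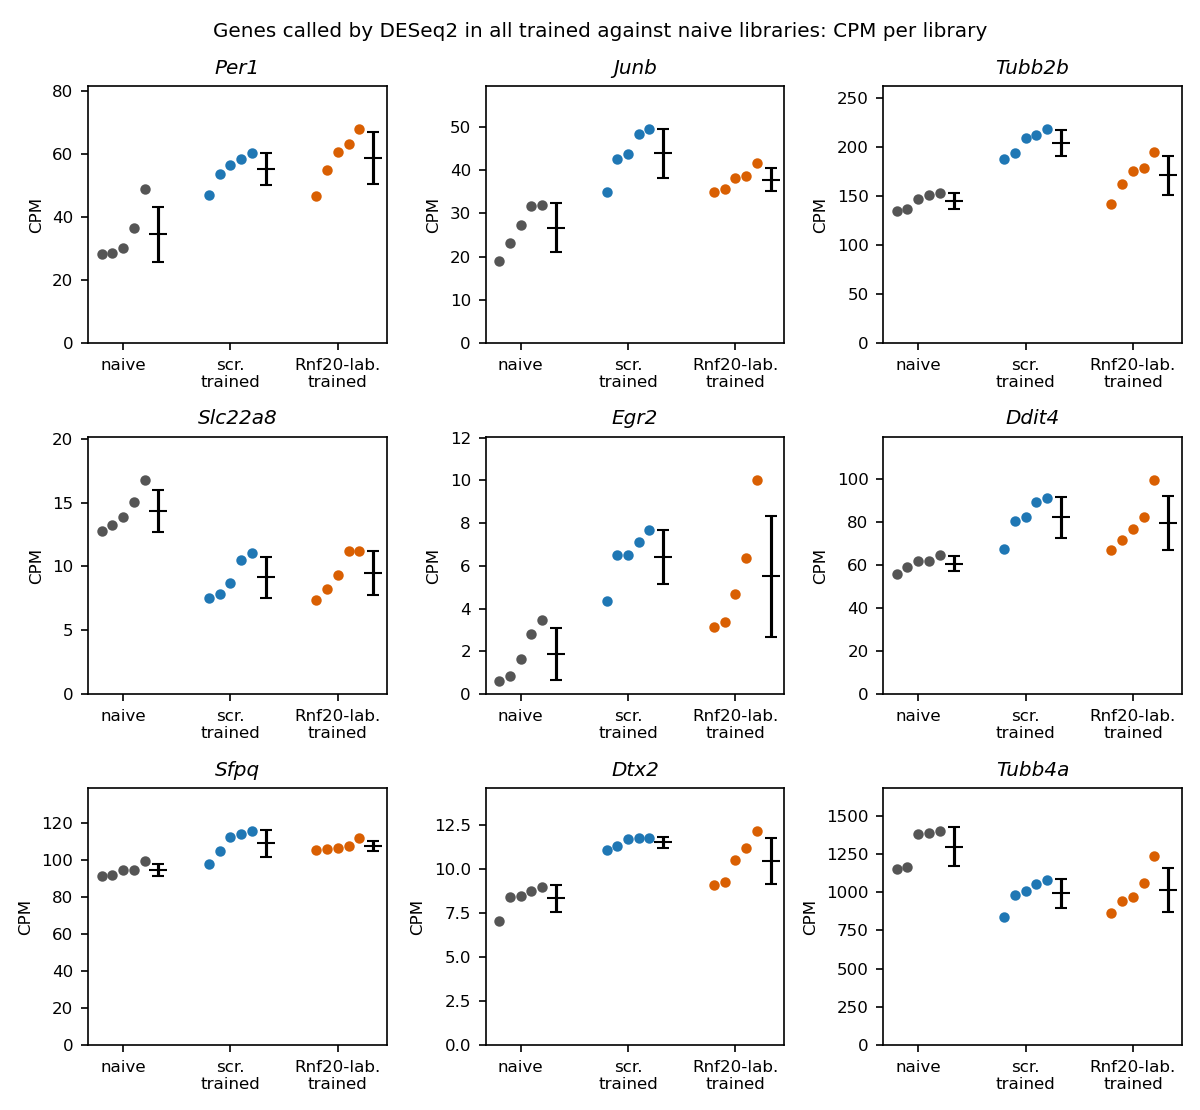
CPM of the 9 genes called by DESeq2, each on its own vertical axis from 0, with 1 point per library and the mean ± SD (n = 5) beside each group. Junb, Ddit4, Dtx2 and Slc22a8 show no overlap between naive (grey) and trained libraries (blue and orange), and in Per1 and Egr2 the highest naive point, replicate 9, reaches into the trained range.

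Complete separation of the libraries was rare. In 14 of 14880 genes (0.0941%) the 10 trained and 5 naive libraries did not overlap, 7 higher (0.047%) and 7 lower (0.047%). How many genes would separate by chance was not tested, so these counts describe the libraries only. The higher genes were Junb, Ddit4, Dtx2, Wwtr1, Nup62, Dnmbp and Dtwd1, and the lower genes were Slc22a8, Mansc1, Adgrg2, Lekr1, Ubox5, Dnajb12 and Rph3al. Wwtr1, the Hippo pathway co-activator TAZ, ran from 6.30 to 8.49 CPM in naive libraries and from 8.497 through a median of 10.7 to 13.7 CPM in trained libraries (log2 fold change 0.49, SE 0.12). Nup62, a nuclear pore protein, had a narrow spread, with 38.1 to 39.8 CPM in naive libraries and 40.2 through 42.4 to 45.9 CPM in trained libraries (log2 fold change 0.13, SE 0.05). Dnmbp, a scaffold that activates the GTPase Cdc42, and Dtwd1, a tRNA-modifying enzyme, had log2 fold changes of 0.27 (SE 0.10) and 0.23 (SE 0.10). The gaps in Wwtr1 and Dnmbp were small: the highest naive and lowest trained values were 8.491 and 8.497 CPM in Wwtr1 and 11.07 and 11.09 CPM in Dnmbp.

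Among the lower genes, Mansc1, a membrane protein with a MANSC domain, was at 14.8, 10.8, 12.6, 11.6 and 12.97 CPM in naive libraries. It ran from 5.59 through 9.24 to 10.5 CPM in trained libraries, and the log2 fold change was -0.48 (SE 0.13). Adgrg2, an adhesion-type receptor, ran from 4.22 to 6.46 CPM in naive and from 2.61 to 4.17 CPM in trained libraries (log2 fold change -0.56, SE 0.15). The ubiquitin ligase Ubox5 and Dnajb12, a co-chaperone of the endoplasmic reticulum, had smaller differences, with log2 fold changes of -0.21 (SE 0.06) and -0.15 (SE 0.05). Rph3al, a Rab effector of vesicle release, was at 9.81 ± 0.684 CPM in naive and 7.78 ± 1.17 CPM in trained libraries, and Lekr1 was at 2.35 ± 0.234 and 1.74 ± 0.174 CPM (SD, n = 5 and 10). In each of the 14 genes edgeR's adjusted p was 0.551 or 0.890. Junb, Ddit4, Dtx2, Slc22a8 and Mansc1 stayed without overlap in all 21 sets of libraries and scalings examined, and Dnmbp, Dnajb12, Rph3al and Ubox5 in 12. Without the 4 libraries far out on the first component, 30 genes were higher and 39 lower without overlap, among fewer libraries.

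**Figure D2:**
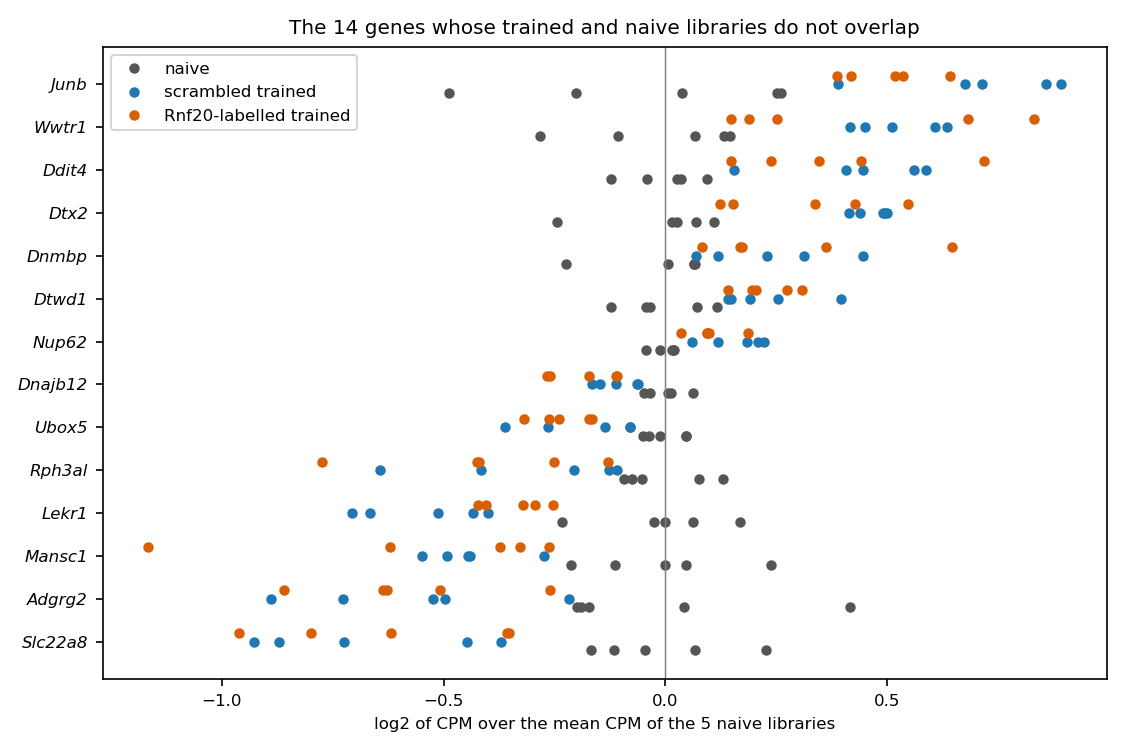
Log2 of CPM over the naive mean (horizontal axis) for the 14 genes whose trained and naive libraries did not overlap, with 1 point per library and the groups offset vertically within each gene. All blue (scrambled trained) and orange (Rnf20-labelled trained) points lie on 1 side of the grey naive points, by a narrow gap in genes such as Wwtr1 and Dnmbp.

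The other genes of smallest p filled up the named set. Higher in trained libraries were Ybx1-ps3, a processed pseudogene of the RNA-binding protein Ybx1 (log2 fold change 0.55, SE 0.13), whose count is uncertain because the handling of reads that match a gene and its copy is unknown here, and the unnamed locus AABR07026997.1 (0.86, SE 0.20). Lower were Car2, a carbonic anhydrase of oligodendrocytes and choroid plexus (-0.43, SE 0.10), Tmc7 (-0.40, SE 0.10), Pdgfd, a growth factor (-0.61, SE 0.16), Tnfsf10, the death ligand TRAIL (-0.59, SE 0.15), and Capn5, a protease (-0.22, SE 0.06). Car2 was at 393 ± 35.2 CPM in naive (n = 5) and 293 ± 47.3 CPM in trained libraries (n = 10), and 9 of 10 trained libraries lay below the naive range. Capn5 was the 1 gene of this set besides Tubb2b with an unadjusted p under 0.05 between the trained groups (0.0026), with -0.34 in the scrambled and -0.10 in the Rnf20-labelled group. Between the trained groups edgeR called 0 genes, with 835 at an unadjusted p under 0.05 (5.61%; 2.63% higher and 2.98% lower in Rnf20-labelled libraries), and DESeq2 called 1 (0.00672%): Pkd1, which encodes polycystin 1, was 0.39 higher on the log2 scale in Rnf20-labelled libraries (adjusted p = 0.0044).

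Of 52 immediate early and activity-induced genes 51 were tested, and 40 had a fold change above 0, beside 7237 of all 14880 genes. Their median log2 fold change was 0.20, with 0.21 in the scrambled and 0.15 in the Rnf20-labelled group, beside -0.00 over all genes. None passed edgeR's adjustment, and at an unadjusted p under 0.05 there were 10 higher (against 3.21% of all genes) and 0 lower. These 10 were Junb, Egr2, Klf4, Fos, Maff, Atf3, Klf2, Fosb, Sik1 and Nr4a1, all transcription factors apart from Sik1, a kinase that restrains CREB co-activators. Klf4 was at 3.33 ± 1.18 CPM in naive and 5.28 ± 0.941 CPM in trained libraries (log2 fold change 0.66, SE 0.23), with 0.69 and 0.63 in the 2 trained groups. Atf3, a stress-induced factor also known from injured neurons, had a log2 fold change of 1.68 (SE 0.67), but its trained libraries spread widely, at 6.55 ± 6.65 CPM against 1.89 ± 0.764 CPM in naive libraries.

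Fos, the other classic AP-1 subunit, was at 13.2, 7.96, 15.7, 6.59 and 3.42 CPM in naive libraries. It was at 15.3, 11.6, 20.0, 23.2 and 18.2 CPM in scrambled trained and at 18.0, 10.8, 10.4, 18.5 and 16.7 CPM in Rnf20-labelled libraries. The groups overlapped, with 6 of 10 trained libraries above the naive range, and the log2 fold change was 0.79 (SE 0.29; edgeR unadjusted p = 0.0145, adjusted p = 0.890). Arc, which regulates AMPA receptor traffic at synapses, ran from 43.8 to 184 CPM in naive and from 70.4 through 145 to 229 CPM in trained libraries (log2 fold change 0.49, SE 0.30; unadjusted p = 0.127). Egr1, another zinc finger factor, ran from 63.9 to 142 CPM in naive and from 64.6 through 133 to 194 CPM in trained libraries (log2 fold change 0.49, SE 0.26; unadjusted p = 0.0741). For both genes the groups overlapped over most of their ranges. Npas4, a neuron-specific factor induced by calcium entry, ran the other way, from 1.78 to 8.30 CPM in naive and from 1.84 through 4.57 to 5.31 CPM in trained libraries (log2 fold change -0.51, SE 0.32; unadjusted p = 0.125). Bdnf, a secreted growth factor for synapses, had a log2 fold change of -0.11 (SE 0.22; unadjusted p = 0.613), Egr3 of 0.00 (SE 0.18), Nr4a2 of 0.07 (SE 0.25) and Homer1 of 0.11 (SE 0.17). Naive replicate 9 held the highest naive value of Per1, Junb, Egr2, Fos, Arc, Npas4 and Egr1, and without it the log2 fold change was 1.98 for Egr2 and 1.06 for Fos. That of Egr2 was 1.43 without naive replicate 11, its lowest with 1 library left out.

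Of 23 glucocorticoid-responsive genes 22 were tested and 20 lay above 0. The median was 0.19 (0.20 in the scrambled and 0.14 in the Rnf20-labelled group). At an unadjusted p under 0.05 there were 5 higher (against 3.21% of all genes) and 0 lower. Besides Per1 and Ddit4 these were Sgk1, Errfi1 and Angptl4. Sgk1, a kinase that controls ion channels, was at 68.8, 75.5, 98.2, 59.6 and 84.1 CPM in naive libraries and at 114 ± 37.4 CPM in trained libraries (log2 fold change 0.55, SE 0.20). Its groups overlapped. Fkbp5, a co-chaperone of the receptor, and Tsc22d3, which encodes the anti-inflammatory protein GILZ, had log2 fold changes of 0.01 (SE 0.12) and 0.12 (SE 0.09). Among 21 clock genes, 10 were above 0 with 2 higher at an unadjusted p under 0.05 (against 3.21% of all genes), Per1 and Nfil3 (0.40, SE 0.17).

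Heat shock and folding genes were among the lists with more members above than below 0. Of 30 heat shock proteins and co-chaperones tested, 23 were above 0, beside 48.6% of all genes. There were 6 higher at an unadjusted p under 0.05 (against 3.21% of all genes) and 0 lower, with a median of 0.06. Dnajb1, the main partner of Hsp70, was at 47.0, 49.5, 53.9, 40.9 and 51.5 CPM in naive libraries and ran from 50.4 through 59.7 to 71.0 CPM in trained libraries. Of the trained libraries 9 lay above the naive range, and the log2 fold change was 0.32 (SE 0.08; edgeR unadjusted p = 0.00118), with 0.39 and 0.25 in the 2 trained groups. The 5 others were Hspb1, Bag3, Hspa1b, Hspe1 and Bag1. Hspb1, a small heat shock protein also made by reactive astrocytes, was at 13.6 ± 4.53 CPM in naive and 51.6 ± 42.5 CPM in trained libraries. Of 24 unfolded protein response genes 19 were above 0, and Xbp1, its transcription factor, was at 55.1 ± 3.46 and 63.9 ± 4.63 CPM with 9 of 10 trained libraries above the naive range (log2 fold change 0.21, SE 0.06). All 64 cytosolic ribosomal protein genes tested were above 0 with a median of 0.15, yet only Rps9 had an unadjusted p under 0.05, and their summed level overlapped between groups. Of 31 proteasome subunits 27 were above 0, with medians of 0.13 in the scrambled and 0.00 in the Rnf20-labelled group.

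**Figure D3:**
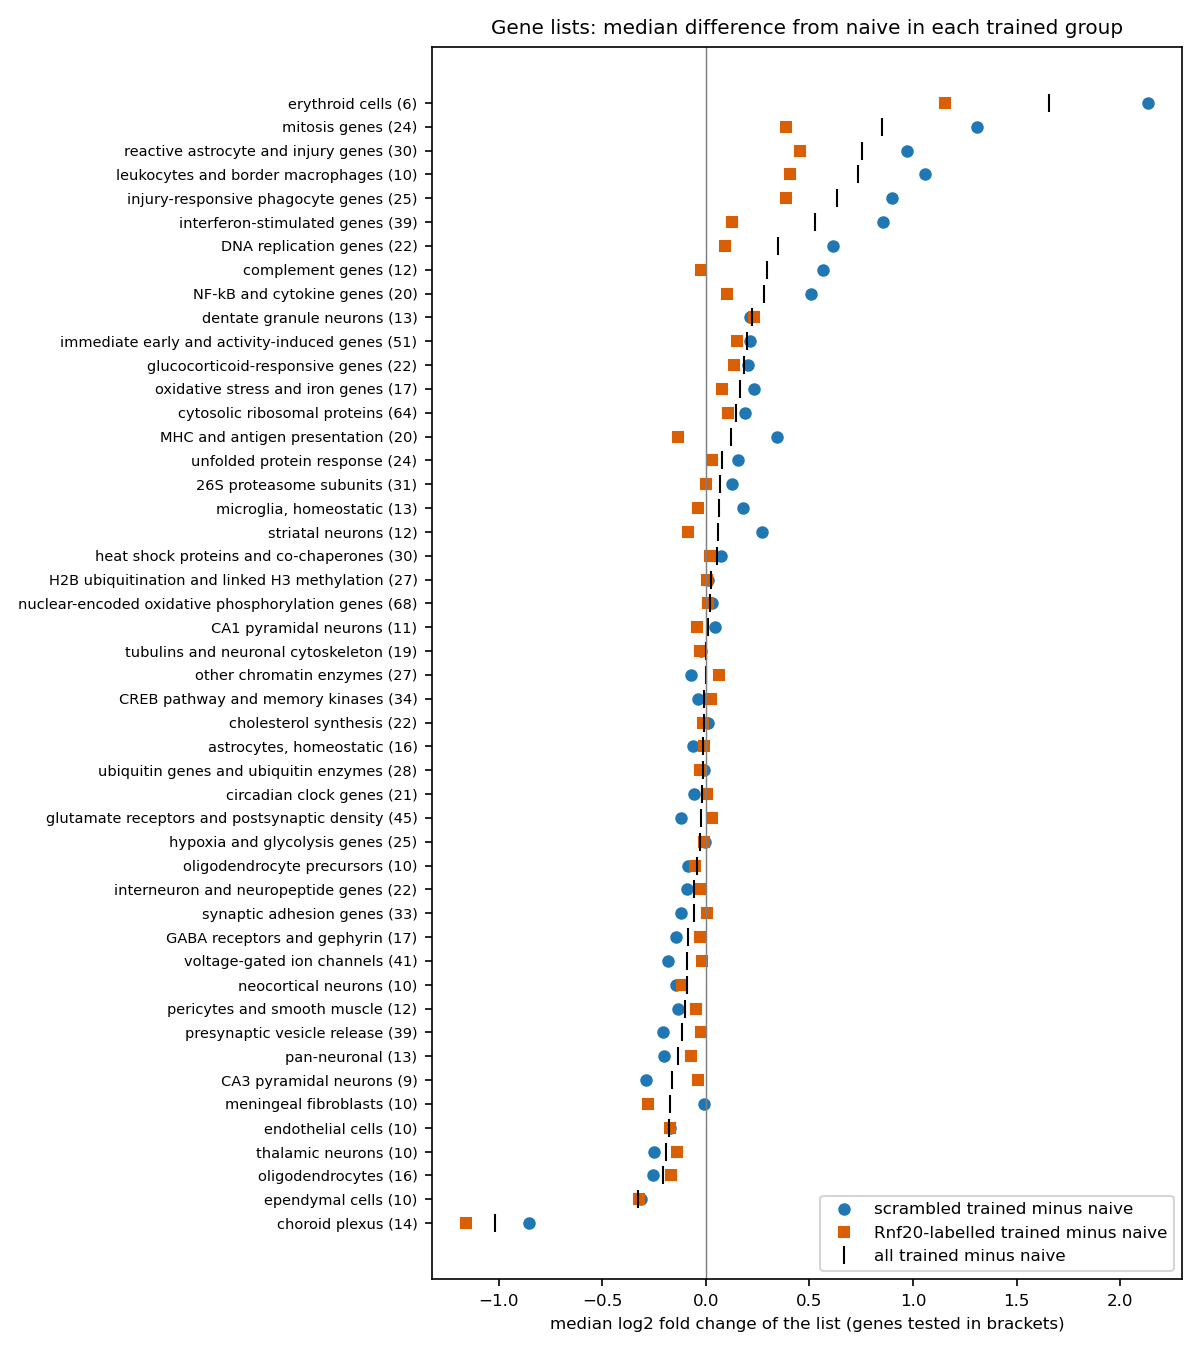
Median log2 fold change from naive (horizontal axis) for 48 gene lists in scrambled trained (circles), Rnf20-labelled trained (squares) and all trained libraries (bars), with the number of genes tested in brackets. Both trained groups share the naive libraries. The immediate early and glucocorticoid-responsive lists have close medians in the 2 groups (0.21 and 0.15, 0.20 and 0.14), while the mitosis list has 1.31 and 0.38.

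Genes of injury-responsive glia, dividing cells and blood had larger fold changes, with a wide spread among trained libraries. Of 30 reactive astrocyte and injury genes tested 28 were above 0 and 13 were higher at an unadjusted p under 0.05 (against 3.21% of all genes), with a median of 0.75. Timp1, a protease inhibitor made by reactive astrocytes, was at 5.89, 6.38, 5.82, 8.85 and 4.13 CPM in naive libraries. It was at 14.4, 17.6, 58.4, 55.6 and 40.6 CPM in scrambled trained and at 4.21, 18.5, 3.25, 41.4 and 14.8 CPM in Rnf20-labelled libraries. Rnf20-labelled replicates 4 and 14 were inside or below the naive range, and the other 8 trained libraries were above it (log2 fold change 1.99, SE 0.54; edgeR unadjusted p = 0.00215, adjusted p = 0.890). Spp1, the secreted phosphoprotein osteopontin, had a log2 fold change of 2.89 (SE 0.96), with 26.9 to 59.9 CPM in naive and 6.00 through 206 to 895 CPM in trained libraries. Both Spp1 and the phagocyte lectin Lgals3 (1.99, SE 0.72) had 8 trained libraries above and 2 below the naive range.

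The 24 mitosis genes tested were all above 0, and 16 were higher at an unadjusted p under 0.05 (against 3.21% of all genes), with a median of 0.85. Their medians were 1.31 in the scrambled and 0.38 in the Rnf20-labelled group, and 16 had an unadjusted p under 0.05 between the trained groups (against 5.61% of all genes). Birc5, which encodes survivin, was at 2.77 ± 0.548 CPM in naive and at 6.54 ± 2.24 and 3.76 ± 1.37 CPM in the 2 trained groups, and the mitotic kinase Plk1 at 1.99 ± 0.193, 5.83 ± 2.80 and 3.03 ± 1.32 CPM (SD, n = 5 each). Of 39 interferon-stimulated genes 37 were above 0, with medians of 0.85 and 0.13 in the 2 groups and 19 members at an unadjusted p under 0.05 between them. Irf9, a subunit of the interferon-activated factor ISGF3, had log2 fold changes of 0.71 and 0.19 in the 2 groups (unadjusted p between them 0.00328). Without the 4 libraries far out on the first component, the pooled medians were 0.29 for reactive astrocyte genes, 0.24 for injury-responsive phagocyte genes, 0.46 for mitosis and 0.22 for interferon-stimulated genes, against 0.75, 0.63, 0.85 and 0.53 with them. The members at an unadjusted p under 0.05 were then 2 of the reactive astrocyte list and 5 of the mitosis list, beside 909 of all genes in either direction. The same medians were 0.20 for immediate early and 0.18 for glucocorticoid-responsive genes.

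Red cell transcripts were higher in most trained libraries of both groups. All 6 erythroid genes tested, of 10 listed, were above 0, and all 6 had an unadjusted p under 0.05 (against 3.21% of all genes). Hbb, the beta-globin gene, was at 72.0, 56.9, 70.7, 92.2 and 49.9 CPM in naive libraries. It was at 72.0, 514, 357, 273 and 153 CPM in scrambled trained and at 96.5, 223, 71.3, 229 and 62.0 CPM in Rnf20-labelled libraries. The groups overlapped through scrambled trained replicate 5 and Rnf20-labelled replicates 14 and 20, and the log2 fold change was 1.5 (SE 0.43). The summed level of the 6 genes ran from 157 to 264 CPM in naive, from 225 to 1831 CPM in scrambled trained and from 181 to 758 CPM in Rnf20-labelled libraries. Alpha-globin genes are near-identical copies, so the values of Hba-a1, Hba-a2 and Hba-a3 are uncertain. Of 10 leukocyte and border macrophage markers 9 were above 0, among them S100a9 of neutrophils (0.391 ± 0.249 and 2.20 ± 2.58 CPM). The part of blood, leukocytes and injury-responsive glia in the differences of Junb, Egr2, Per1 and Ddit4 was not tested. Without the 4 libraries far out on the first component, of which Rnf20-labelled replicate 14 lies at the opposite end from the other 3, the log2 fold changes of these 4 genes were 0.66, 1.84, 0.78 and 0.48. With the choroid plexus level as a covariate they were lower than in the main fit, at 0.53, 1.54, 0.68 and 0.36. Taking the level of homeostatic microglia markers as a covariate gave 0.62, 1.76, 0.76 and 0.40. A fit with 1 surrogate variable gave 0.62, 1.77, 0.76 and 0.41.

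No marker of myelin or vessels passed adjustment. All 16 oligodendrocyte markers were below 0, with 5 lower at an unadjusted p under 0.05 (against 2.21% of all genes) and a median of -0.21 (-0.26 in the scrambled and -0.17 in the Rnf20-labelled group). These 5 include Enpp2, which is also on the choroid plexus list. With the choroid plexus level as a covariate the median of the oligodendrocyte markers was -0.11, with 2 markers above 0 and 2 at an unadjusted p under 0.05. Over all genes 1868 passed that threshold in this fit, in either direction, beside 807 in the main fit. With 1 surrogate variable the median was -0.33 with 13 markers at an unadjusted p under 0.05, beside 1337 of all genes. Without the 4 libraries far out on the first component it was -0.31 with 9, beside 909 of all genes. Opalin, a myelin membrane protein, was at 324 ± 55.5 CPM in naive and 225 ± 53.0 CPM in trained libraries, with 7 of 10 trained libraries below the naive range (log2 fold change -0.53, SE 0.15). Ermn, a myelin cytoskeletal protein, was at 191 ± 24.95 and 145 ± 31.9 CPM (-0.40, SE 0.14). Kdr, the VEGF receptor of endothelial cells, was at 15.9 ± 1.15 and 12.7 ± 1.90 CPM, with 9 of 10 trained libraries below the naive range (-0.33, SE 0.10). Of 12 markers of pericytes and smooth muscle 5 were above 0, with 2 higher and 2 lower at an unadjusted p under 0.05. The summed level of the oligodendrocyte markers overlapped, at 18058 to 30548 CPM in naive, 13685 to 30888 CPM in scrambled trained and 15824 to 27036 CPM in Rnf20-labelled libraries, and both its lowest and its highest value were in scrambled trained libraries. Tubb4a and Car2 are known from oligodendrocytes, and the part of these cells in their lower values was not tested. All 13 pan-neuronal markers were below 0 with a median of -0.13 and none at an unadjusted p under 0.05, and 10 of 13 dentate granule neuron markers were above 0 with a median of 0.22, also with none.

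**Figure D4:**
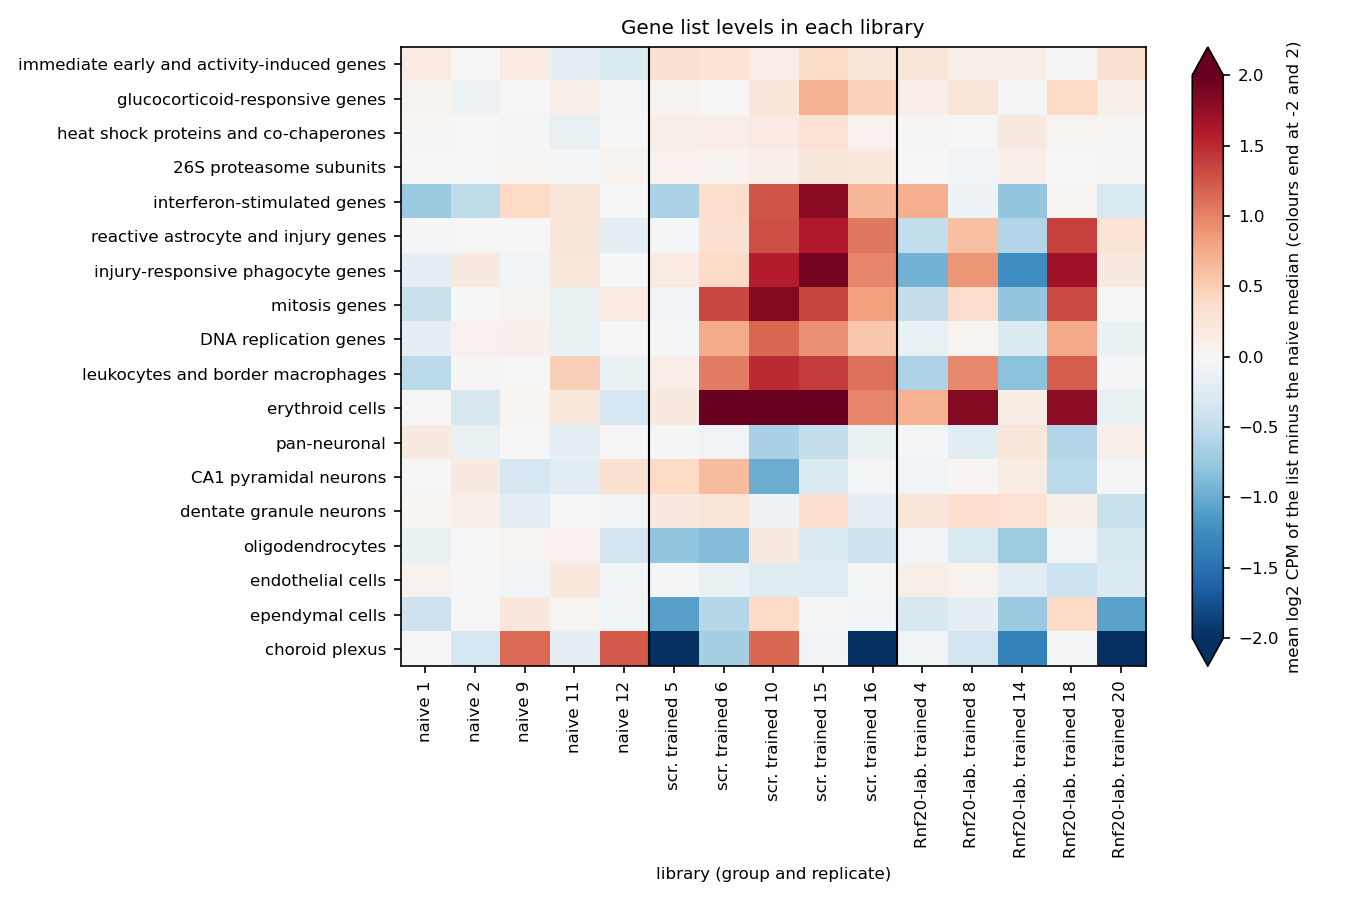
Mean log2 CPM of 18 gene lists in each of the 15 libraries, relative to the median of the naive libraries (red higher, blue lower; colours end at -2 and 2). Immediate early genes differ by pale colours across both trained groups. Glial, mitosis and erythroid lists are strongly red in scrambled trained replicates 10 and 15 and Rnf20-labelled replicate 18. In the erythroid list 7 of 10 trained libraries lay above the naive range, and Hbb was highest in scrambled trained replicate 6. Choroid plexus is deep blue in scrambled trained replicates 5 and 16 and Rnf20-labelled replicate 20.

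Promoters of the first-named higher and lower genes were also searched as a whole. Of 12 higher genes 10 matched a RefSeq promoter, and TGACG was in 4 (Junb, Tubb2b, Egr2 and Dnmbp). Of 13 lower genes 8 matched, and TGACG was in 3 (Tubb4a, Pdgfd and Rph3al). Across all promoters TGACG was in 19.0%, and sets of 10 and 8 promoters are small. The full TGACGTCA element was in 0 of either set, and the serum response element only in Egr2. Searches for the heat shock element GAANNTTC, the interferon-stimulated response element and the E-box CACGTG used the same windows and both strands, and they are in 7.02%, 3.29% and 5.79% of all promoters. A match to GAANNTTC was in 1 of the 8 lower promoters (Adgrg2), and a match to the interferon-stimulated response element lay 88 bases before the start of Per1. These matches describe letters and are not evidence of binding.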

How the data were processed

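Messenger RNA of dorsal CA1 was sequenced from stranded libraries (14 PCR cycles, per the labels' protocols). Per the submitters' processing notes, the authors used Trim Galore, FastQC, featureCounts 2.0.1 and DESeq2 on Rnor_6.0; the aligner, the annotation and the strand mode of featureCounts were not given in the sources used here. A read count for each of 22314 genes is in the deposited raw table; the deposited normalised signal table was not used. Of these genes 399 had no count, and 14880 passed edgeR's filterByExpr, keeping 99.9% of counts.

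In R 4.3.3, edgeR 4.0.16 fitted 3 group coefficients to all 15 libraries (TMM scaling, robust quasi-likelihood F test, 12 residual degrees of freedom, biological coefficient of variation 0.208). The contrast was the mean of both trained groups minus naive, with Benjamini-Hochberg adjustment over all genes tested and a threshold of 0.05. CPM values use TMM-scaled library sizes. Log2 fold changes come from the fit, and principal components and list levels from log2 CPM with a prior count of 2. No pair of libraries within a group agreed within counting noise (chi-square per degree of freedom 9.51 to 73.8 over 30 pairs).

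Alternatives were DESeq2 1.42.0, limma 3.58.1 (voom, with and without quality weights), 2 other scalings, 2 other filters, 1 trained coefficient, 1 surrogate variable (sva 3.50.0), microglia or choroid plexus level as covariate, and fits without 4, 3 or 1 libraries. Scripts were tested on simulated data.

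The members, the 48 gene lists (30 of pathways, 18 of markers) and the tests were chosen with earlier results of these data known. Named genes are Rnf20, those of smallest p in each direction with a mean CPM of at least 1 (up to 8 where fewer passed), the genes without overlap between groups, 1 or 2 members of smallest p per list and 8 well-known activity genes. Sfpq, Pkd1 and other list members were chosen after their values were seen. Promoters came from RefSeq on GRCr8, matched by symbol for 83 of 119 named genes; coordinates are those of that build.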

Additional observations from a re-analysis of the deposited data

Results flagged for a closer look

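In 129 group values (31 genes and 12 gene lists in groups of 5 libraries), 3 had 1 library far from the other 4, and chance alone flags about 1 in 20 such groups. Car2 was at 401.492 CPM in Rnf20-labelled replicate 4, against 282.937 to 295.057 CPM in the other 4 libraries of its group, and it is the 1 trained library inside the naive range of that gene. Tnfsf10 was at 4.47485 CPM in scrambled trained replicate 5, against 3.20271 to 3.47161 CPM in the others. Dnmbp was at 9.05056 CPM in naive replicate 12, against 10.6064 to 11.0679 CPM in the other naive libraries, so its gap to the trained libraries rests on the 4 higher ones. Among the 31 genes, 0 differed between the trained groups at an adjusted edgeR p under 0.05.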

How the results depend on the processing

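No paired analysis was possible because the replicate numbers are not shared between the groups. Under DESeq2 the genes called, and the shared changes, were 7 higher and 2 lower in place of 0 and 0. Leaving out each library in turn gave 0 to 1 genes called higher (Per1, without naive replicate 9), the same range of 0 to 1 for shared higher changes, and 0 lower. Genes without overlap ranged from 7 to 17 (higher) and from 2 to 18 (lower) over the same fits. Upper-quartile scaling gave 7 higher and 2 lower, of which 3 and 2 were among those of the full set. The fit without the 4 libraries far out on the first component gave 30 and 39, and that without the 3 libraries of lowest choroid plexus level gave 22 and 17. Fewer libraries make separation easier at a fixed scaling. The scaling was recomputed in each fit, however, and some genes of the full set then overlapped. At an unadjusted p under 0.05 the count was 807, and 1337 with 1 surrogate variable, 1868 with the choroid plexus covariate and 575 to 1092 with 1 library left out. The fold changes of Per1, Junb, Egr2, Ddit4, Tubb2b, Dtx2, Slc22a8, Tubb4a, Mansc1 and Fos kept their sign under all 28 alternatives. Some other fold changes reversed. Tac1, above 0 in the main fit, was -0.065 with quality weights, -0.17 with 1 surrogate variable and -0.28 without the 4 libraries. It ran widely, from -0.27 to 0.47, with 1 library left out (lowest without scrambled trained replicate 10). Bdnf was 0.026 with 1 surrogate variable and -0.23 to 0.017 with 1 library left out (highest without naive replicate 12). Ppp1r1b was 0.051 with the choroid plexus covariate and -0.37 to 0.032 with 1 library left out (highest without naive replicate 1). The cause was not tested. Genes of a few CPM such as Egr2 rest on few reads per library.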

Other observations

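All 22 DNA replication genes tested had a fold change above 0, with 7 higher at an unadjusted edgeR p under 0.05 (against 3.21% of all genes) and a median of 0.35. Their medians were 0.61 in the scrambled and 0.10 in the Rnf20-labelled group, and 14 had an unadjusted p under 0.05 between those groups (against 5.61% of all genes). The median was 0.30 for 12 complement genes, 9 of them above 0. It was 0.57 in the scrambled and -0.02 in the Rnf20-labelled group, with 11 and 5 genes above 0. For 20 NF-kB and cytokine genes, 17 of them above 0, the median was 0.28 (0.51 in the scrambled and 0.10 in the Rnf20-labelled group). For 10 ependymal markers it was -0.33, with 1 higher and 1 lower at an unadjusted p under 0.05. Without the 4 libraries far out on the first component the medians were 0.15 for DNA replication, 0.09 for complement, 0.09 for NF-kB and cytokine genes and -0.53 for ependymal markers. The 34 tested genes of the CREB pathway and memory kinases had a median log2 fold change of -0.01, with 16 above 0. Crem, a cAMP-responsive factor of this list, was at 17.2 ± 1.68 CPM in naive (SD, n = 5) and 20.3 ± 3.17 CPM in trained libraries (SD, n = 10), with 8 of 10 trained libraries above the naive range (log2 fold change 0.24, SE 0.11; edgeR unadjusted p = 0.0534). Of 39 presynaptic vesicle release genes 9 were above 0, with a median of -0.12 that was -0.21 in the scrambled and -0.02 in the Rnf20-labelled group. P4ha1, a collagen-modifying enzyme that responds to low oxygen, was at 48.3 ± 2.14 and 57.2 ± 4.68 CPM, with 9 of 10 trained libraries above the naive range (log2 fold change 0.25, SE 0.06; edgeR unadjusted p = 0.00166, adjusted p = 0.890).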
